A study of Mus musculus with 4 samples.

Results

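Interferon-inducible GTPase genes were examined in primary mouse macrophages for H3K4me3, the trimethylation of lysine 4 on histone H3 that marks active promoters. The 8 genes, Iigp1, Irgm1, Igtp, Irgm2, Gbp2, Gbp3, Gbp5 and Gbp7, were covered by 4 windows of the mm9 genome. These run from 60.52 to 60.56 Mb on chromosome 18 (Iigp1), from 48.66 to 48.692 Mb on chromosome 11 (Irgm1 and its flank), from 57.99 to 58.05 Mb on chromosome 11 (Igtp and Irgm2) and from 142.15 to 142.31 Mb on chromosome 3 (the Gbp genes). Every peak that overlapped a window was taken, which gave 65 of the 64314 peaks in the 4 deposited lists. The windows were chosen with the presence, widths and scores of their peaks in these lists already known, so the values below are descriptions, and none was tested.

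The macrophages were grown from bone marrow for 7 days, and all mice had a mixed background of C57BL/6 (94%) and 129/Ola (6%). The knockout cells (KO, genotype Wbp7-/-) lack Wbp7, also called Kmt2b and named MLL2 or MLL4 in the labels, an enzyme that methylates histone H3 at lysine 4. They were set against heterozygous cells (HET, genotype Wbp7+/-), which have 1 functional copy, and neither genotype is wild type. Cells of each genotype were exposed to lipopolysaccharide (LPS), a component of bacterial walls, at 10 ug/ml for 4 h by their labels, or left untreated. The windows held 16 peaks in LPS-treated KO cells, 28 in LPS-treated HET cells, 10 in untreated KO cells and 11 in untreated HET cells. The sources used here name neither the design of the alleles nor the number or age of the mice. Each of the 4 groups held 1 library, so no difference has a replicate check.

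Interferon-inducible GTPases are enzymes that macrophages make in quantity after interferon or bacterial stimuli, and that act on membranes around intracellular bacteria and parasites. The immunity-related GTPases (IRG) include effectors such as Iigp1 (Irga6), which assembles on parasite vacuoles, and the regulators Irgm1, Irgm2 and Igtp (Irgm3), which keep the effectors off the cell's own membranes. The guanylate-binding proteins (GBP) are larger GTPases that coat pathogens and their vacuoles. Gbp5 is also known for its part in inflammasome activation, and Gbp2 is recruited to vacuoles of the parasite Toxoplasma. LPS reaches these genes largely through interferon produced by the stimulated macrophage, and interferon signalling acts through the interferon-stimulated response element (ISRE) and the gamma-activated site (GAS) in their promoters.

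The promoter sequences are shown because they carry a feature that was not used to choose the windows. RefSeq promoters (GRCm38.p6) matched 7 of the 8 genes, by symbol, and Iigp1 had no entry. The lines below give the 200 bases before the first listed RefSeq start of each gene, on the gene's own strand. Capitals mark every match to the ISRE core, which was searched on both strands as GAAA, any 2 bases and GAAA again, or on the other strand as TTTC, any 2 bases and TTTC.

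Regulators of the IRG family:
Irgm1: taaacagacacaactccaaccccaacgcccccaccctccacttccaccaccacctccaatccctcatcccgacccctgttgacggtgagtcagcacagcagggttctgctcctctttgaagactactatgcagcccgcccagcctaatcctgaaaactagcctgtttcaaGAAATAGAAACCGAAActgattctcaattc
Igtp: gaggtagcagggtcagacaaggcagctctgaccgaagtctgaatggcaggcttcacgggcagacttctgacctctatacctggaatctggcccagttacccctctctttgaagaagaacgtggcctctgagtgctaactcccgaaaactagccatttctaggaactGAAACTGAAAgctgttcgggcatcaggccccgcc
Irgm2: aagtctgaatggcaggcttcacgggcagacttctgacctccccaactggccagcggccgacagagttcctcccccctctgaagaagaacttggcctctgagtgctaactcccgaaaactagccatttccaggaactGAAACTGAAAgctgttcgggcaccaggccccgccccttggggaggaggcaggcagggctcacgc
Guanylate-binding proteins:
Gbp2: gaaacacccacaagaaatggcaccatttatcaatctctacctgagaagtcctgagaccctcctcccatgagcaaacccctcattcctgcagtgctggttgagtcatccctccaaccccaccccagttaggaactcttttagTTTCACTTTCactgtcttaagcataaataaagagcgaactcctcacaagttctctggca
Gbp3: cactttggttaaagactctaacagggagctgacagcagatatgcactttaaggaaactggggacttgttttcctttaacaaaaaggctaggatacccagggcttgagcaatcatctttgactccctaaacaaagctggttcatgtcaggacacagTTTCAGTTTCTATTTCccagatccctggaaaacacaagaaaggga
Gbp5: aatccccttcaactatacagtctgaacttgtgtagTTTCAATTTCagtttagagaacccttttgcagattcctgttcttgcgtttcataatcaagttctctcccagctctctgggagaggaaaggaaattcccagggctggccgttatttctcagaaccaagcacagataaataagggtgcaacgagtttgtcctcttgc
Gbp7: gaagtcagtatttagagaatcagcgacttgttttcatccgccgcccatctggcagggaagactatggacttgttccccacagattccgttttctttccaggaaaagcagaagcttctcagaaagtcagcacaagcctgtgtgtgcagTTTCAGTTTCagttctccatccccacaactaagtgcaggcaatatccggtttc

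In GRCm38.p6 these stretches lie at chr11:48871421-48871620 on the minus strand for Irgm1, and on the plus strand at chr11:58199356-58199555 for Igtp, chr11:58214777-58214976 for Irgm2, chr3:142620463-142620662 for Gbp2, chr3:142559844-142560043 for Gbp3, chr3:142496734-142496933 for Gbp5 and chr3:142530136-142530335 for Gbp7. These positions are not comparable with the mm9 positions of the peaks. The ISRE core was present in all 7 genes, against 2.27% of the 32851 promoters of the table over the same 200 bases. The genes are known as interferon-inducible, so this share describes the set and nothing was tested with it. It ended 15 to 55 bases before the start in 6 of them, and 156 bases before it in Gbp5, where a GAS match lay closer to the start. Irgm1 and Gbp3 each held 2 overlapping matches. Gbp3 has a second RefSeq start, not printed here, whose promoter held none. The GAS sequence, TTCNNNGAA on both strands, was found in Igtp, Irgm2, Gbp5 and Gbp7, against 5.49% of all promoters. In Igtp and Irgm2 it lay 2 bases upstream of the ISRE core, without overlap. The Igtp and Irgm2 promoters are near copies, with 247 identical bases over 271 aligned positions (91.1%). How reads that align to several places were treated is not given in the sources used here, so signal at such copies could be split between them. A match is a description of the sequence and does not show that a factor bound there.

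The lists held 15086 peaks in LPS-treated KO cells, 17313 in LPS-treated HET cells, 14599 in untreated KO cells and 17316 in untreated HET cells. The deposited score of a peak comes from the peak caller, grows with both depth and enrichment, and piles up at 3100. Scores of 3100 or more are called the ceiling below, and they made up 54.76% to 61.97% of each list. Read numbers are unknown, so scores only rank peaks within a list, and a missing peak means that the caller's threshold was not passed. For LPS-treated HET cells, the header of the file says 24 h of LPS and the sample label 4 h. The LPS time of that list is therefore uncertain, which touches its every value and comparison.

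Overlapping peaks of the 4 lists were joined into regions, and regions within 1 kb of each other into stretches. The windows held 22 of 18786 regions and 10 of 17373 stretches. There was 1 stretch in the Iigp1 window, 2 in the Irgm1 window, 3 in the Igtp and Irgm2 window and 4 in the Gbp window. All 4 lists had a peak at 8 of the 10 stretches, against 69.1% of all stretches. The Iigp1 stretch was found with LPS alone, in KO and HET cells alike, a class that held 1.35% of all stretches. The stretch on the flank of Irgm1 was found in HET cells alone, with and without LPS, a class that held 11.1% of all stretches. Stretches found in KO cells alone, with and without LPS, numbered 0 in the windows and 1.93% in the series.

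Counted by regions, 8 of the 22 were in all 4 lists (65.4% of all regions), and 5 were found with LPS alone in both genotypes (1.75%), 4 of them at Iigp1. With peaks scoring at least 500 alone, that class held 2 regions. The flank of Irgm1 gave the 1 region of HET cells alone under both treatments (10.9%), and 0 were found in KO cells alone (2.07%). The other 8 regions were in LPS-treated HET cells only. They were low-scoring fragments within or at the ends of larger stretches, with scores from 50.48 to 130.27.

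**Figure D1:**
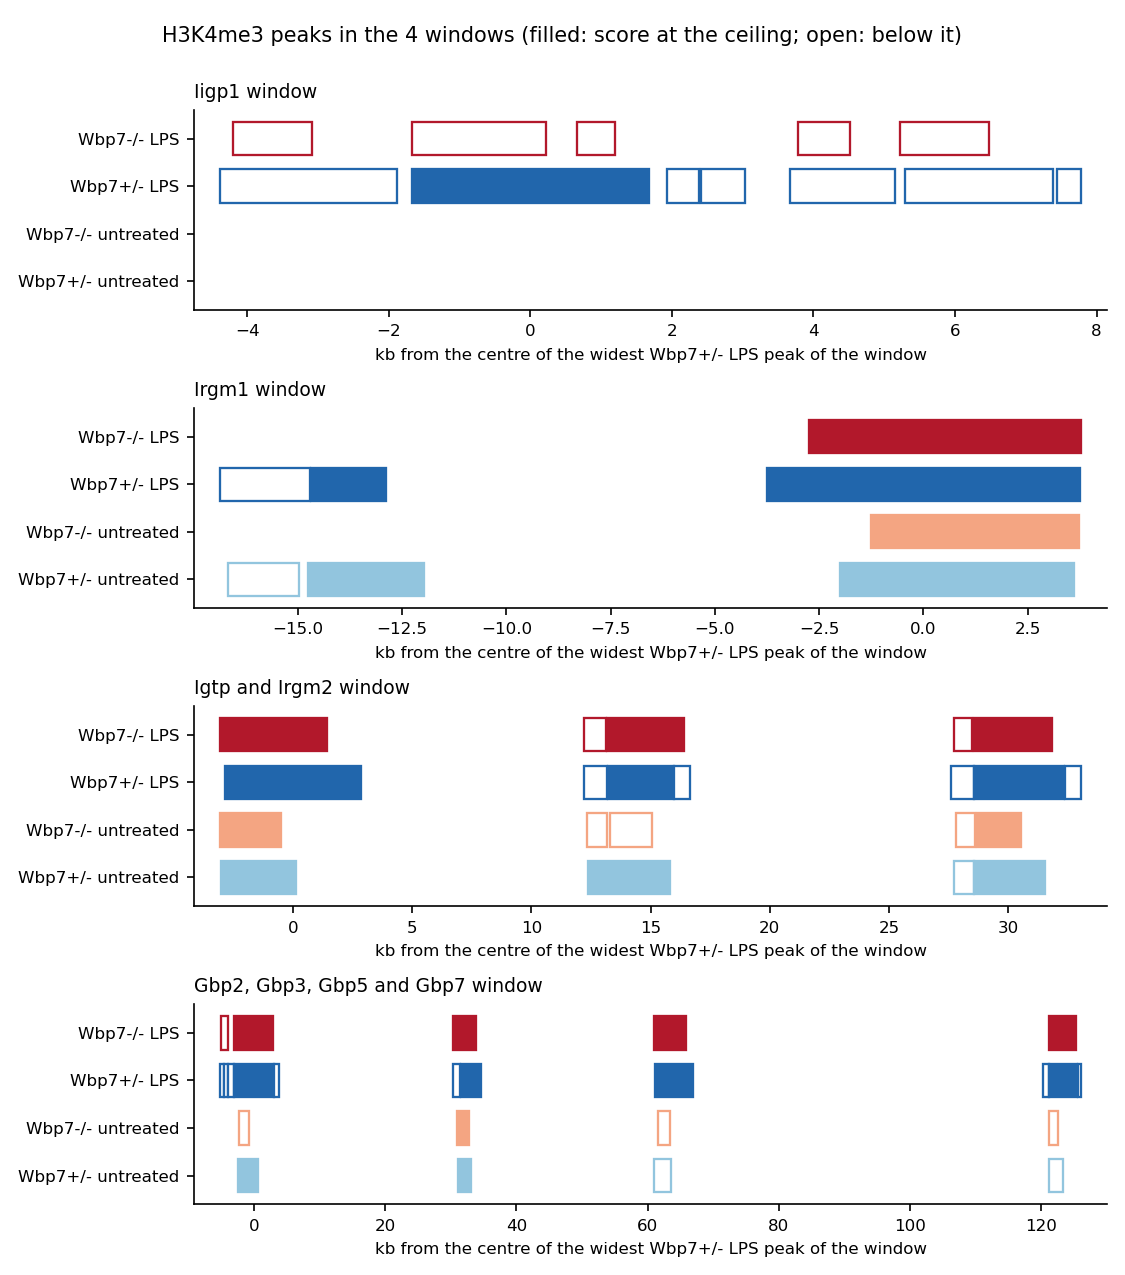
Peaks of each list in the 4 windows, drawn to scale with distance in kb from the centre of the widest peak of LPS-treated HET cells. Filled bars are peaks at the score ceiling and open bars lie below it. The Iigp1 window is empty in both untreated lists, and the flank of Irgm1 is empty in both KO lists.

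Iigp1, the IRG effector of the set, had no peak anywhere in its 40 kb window without LPS in either genotype. After LPS, a stretch from 60532986 to 60545156 on chromosome 18 held 5 peaks in KO cells and 7 in HET cells. These covered 5535 bp in KO cells and 10862 bp in HET cells. The stretch was thus present in both LPS libraries and shorter in the one without Wbp7, by a factor of 0.51. By covered length it ranked 618 of 13578 stretches in the KO list and 39 of 15470 in the HET list. Its increase with LPS ranked 15 of 14322 stretches in KO cells and 1 of 16418 in HET cells. These lengths and ranks depend on joining across lists. In the KO list alone, gaps from 60534281 to 60535701 and from 60538571 to 60541151 exceeded 1 kb and were bridged only by HET peaks. The HET list itself crossed from 60539051 to 60541040 only through fragments scoring 60.23 and 130.27.

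The Iigp1 stretch was not a single block. Its central peak was 1894 bp wide with a score of 1502.53 in LPS-treated KO cells, and 3355 bp wide at the ceiling in LPS-treated HET cells. It began at nearly the same base in both, at 60535701 in KO cells and 60535697 in HET cells, and in HET cells its end lay 1457 bp further out. A second KO peak of 542 bp (score 71.72) lay within the span of the HET peak.

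On the lower-coordinate side of the centre, a peak measured 1114 bp (score 230.89) in KO cells and 2503 bp (score 1639.86) in HET cells. On the other side, a peak measured 735 bp (score 86.97) in KO cells and 1479 bp (score 565.77) in HET cells, and the next one 1250 bp (score 828.44) in KO cells and 2100 bp (score 2184.46) in HET cells. Each peak of the KO list was thus narrower than the HET peak it overlapped. The HET list held 3 further fragments of 348 to 620 bp, with scores from 55.42 to 130.27, that no KO peak overlapped.

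Irgm1, a regulator of the IRG system, carried a long peak in every list. It measured 6518 bp in KO cells and 7510 bp in HET cells after LPS, and 4988 bp in KO cells and 5597 bp in HET cells without it. All 4 peaks were at the score ceiling, and each was wider than 96.1% to 99.4% of the peaks in its list. The mark was longer with LPS by 1.31 times in KO cells and 1.34 times in HET cells. Within each treatment the KO peak was shorter, at 0.868 of the HET width after LPS and 0.891 without.

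At the flank of Irgm1, no peak was called in either KO list, while in HET cells the stretch from 48666121 to 48671022 held 2 peaks covering 3955 bp after LPS and 4493 bp without. It lay 8.2 kb from the Irgm1 stretch, on its lower-coordinate side. The peak nearer to Irgm1 was at the ceiling in both HET lists, 1797 bp wide after LPS and 2783 bp without, and the other scored 2103.92 after LPS and 3015.8 without. It was the only one of the 9 stretches called in both HET lists that was shorter after LPS, at 0.88 of the untreated length. Ordered by how many fewer bases KO cells had covered, it ranked 12 of 16366 stretches after LPS and 6 of 16283 without. In the RefSeq gene order (GRCm38.p6), the 6 genes next to Irgm1 on that side, before Trim7, are all tRNA genes. Whether the peaks lie at any of them was not analysed here, because no mm9 annotation was used.

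The window of Igtp and Irgm2 held 3 stretches, each with a peak in every list. In the RefSeq order the gene before Igtp is Gm12250, also named Irgb10, a further IRG gene, so 3 IRG genes stand in a row there, all on the plus strand. Stretches were not assigned to single genes. The first, from 57996880 to 58002811, covered 4466 bp in KO cells and 5730 bp in HET cells after LPS, and 2548 bp in KO cells and 3142 bp in HET cells without. It was a single peak at the ceiling in each list, and the longest of the 3 after LPS in both genotypes.

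The second, from 58012144 to 58016604, covered 4138 bp in KO cells and 4440 bp in HET cells after LPS, and 2611 bp in KO cells and 3441 bp in HET cells without. The untreated KO list was the only one without a ceiling peak there, with scores of 1974.67 and 2228.22 for 2 fragments. The third, from 58027557 to 58033013, covered 4024 bp in KO cells and 5420 bp in HET cells after LPS, and 2636 bp in KO cells and 3812 bp in HET cells without. It reached the ceiling in all 4 lists. At each of the 3 stretches, both LPS values were above both untreated values, and within a treatment the KO value was the lower.

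The Gbp window held 4 stretches, again with a peak in every list, separated by 26.4 to 53.4 kb. In the RefSeq gene order, Gbp5, Gbp7, Gbp3, Gbp2b and Gbp2 come in this order on the plus strand, 5 protein-coding Gbp genes for 4 stretches. A non-coding RNA gene on the minus strand, Gm40158, stands between Gbp3 and Gbp2b. The first stretch, from 142156475 to 142165512 on chromosome 3, covered 6957 bp in KO cells and 8903 bp in HET cells after LPS, and 1590 bp in KO cells and 3046 bp in HET cells without. The second, from 142191978 to 142196269, covered 3593 bp in KO cells and 4175 bp in HET cells after LPS, and 1737 bp in KO cells and 2061 bp in HET cells without. Both were well above their untreated length in the LPS lists of each genotype, the first by the larger factor.

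The third Gbp stretch, from 142222688 to 142228640, covered 4840 bp in KO cells and 5830 bp in HET cells after LPS, and 1882 bp in KO cells and 2526 bp in HET cells without. The fourth, from 142282011 to 142287851, covered 4161 bp in KO cells and 5645 bp in HET cells after LPS, and 1251 bp in KO cells and 2087 bp in HET cells without. Without LPS the 4 Gbp stretches measured at most 1882 bp in KO cells and 3046 bp in HET cells, and each was shorter in KO than in HET cells. All 4 reached the ceiling in both LPS lists. Without LPS, only the second did so in KO cells, where the first scored 610.18, the third 498.28 and the fourth 377.53, above 26.7%, 25.2% and 23.0% of the peaks in that list. In untreated HET cells the first and the second were at the ceiling, the third scored 2036.89 and the fourth 2121.37.

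**Figure D2:**
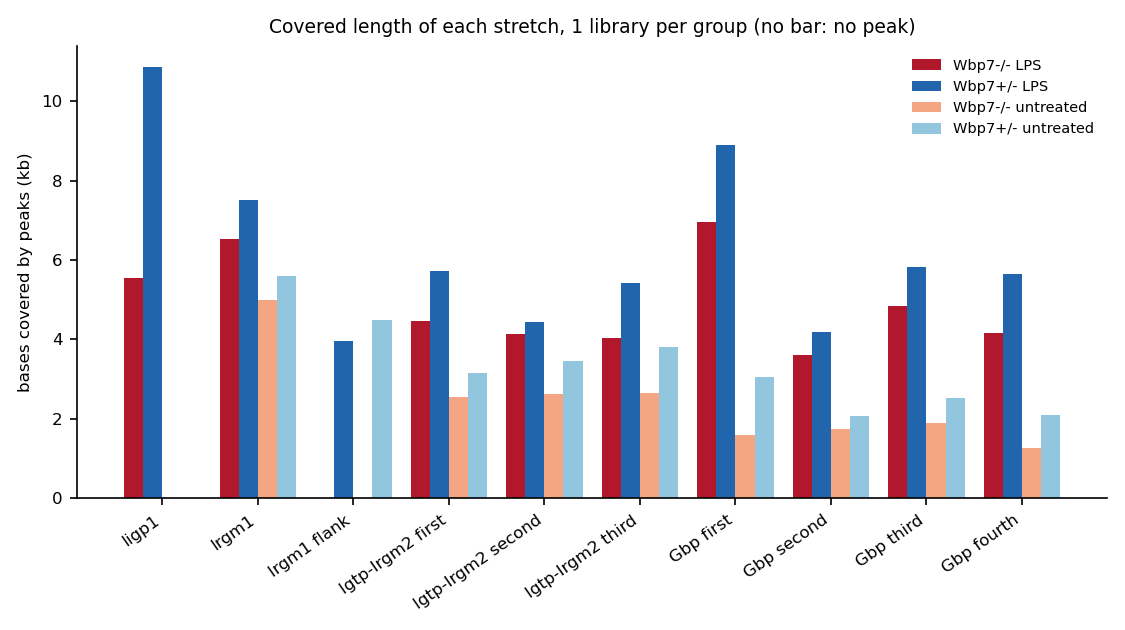
Bases covered by peaks (kb) at each of the 10 stretches, with 1 bar per list and 1 library per group. At the 8 stretches found in all lists, both LPS bars stand above both untreated bars, and within a treatment the KO bar is the shorter.

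The response to LPS was compared within each genotype. Over the 4 windows together, peaks covered 44232 bp in LPS-treated and 19243 bp in untreated KO cells, a ratio of 2.30. In HET cells they covered 62470 bp with LPS and 30205 bp without, a ratio of 2.07. Among stretches with a peak in both lists of a genotype, covered length was larger by 1.5 times or more at 7 of 8 in KO cells, against 3.94% of all stretches, and at 5 of 9 in HET cells, against 4.83%. It was so in both genotypes at 5 of the 8 stretches of all lists, against 1.9%. These 5 were the 4 Gbp stretches and the first of the Igtp and Irgm2 window. From a ratio of 2, the count in KO cells was 4 of 8. A stretch shorter by 1.5 times or more was found at 0 of 8 in KO cells, against 2.5%, and at 0 of 9 in HET cells, against 2.53%. Any shortening was seen at 0 of 8 in KO cells, against 59.7%, and at 1 of 9 in HET cells, against 56.5%. The median ratio of LPS over untreated length was 1.91 in the windows and 0.976 in the series for KO cells, and 1.82 and 0.982 for HET cells. The windows were chosen from these contrasts, so the shares of the whole series stand here for orientation only.

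The ratios differed among the windows. The Gbp stretches had the highest, from 2.07 to 4.38 in KO cells and from 2.03 to 2.92 in HET cells. The stretches of the Igtp and Irgm2 window lay between 1.53 and 1.75 in KO cells and between 1.29 and 1.82 in HET cells. Both upper values came from the first of them. The second gave 1.585 in KO and 1.29 in HET cells, and the third 1.527 in KO and 1.422 in HET cells. Which of the IRG genes in that row each stretch belongs to, Gm12250 included, was not analysed. Irgm1, already covered over a long stretch without LPS, had the lowest ratio among the stretches found in all lists in KO cells. In HET cells its ratio was above that of the second Igtp and Irgm2 stretch. Counted by regions, 5 of 13 in KO cells were present with LPS alone, against 7.61% of all regions, and 13 of 22 in HET cells, against 7.95%. The HET count includes the 8 low-scoring fragments. Counted by peaks, 6 were present with LPS alone in KO cells and 15 in HET cells, but 4 in KO cells and 8 in HET cells with scores of at least 100, and 5 in each genotype with at least 500.

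**Figure D3:**
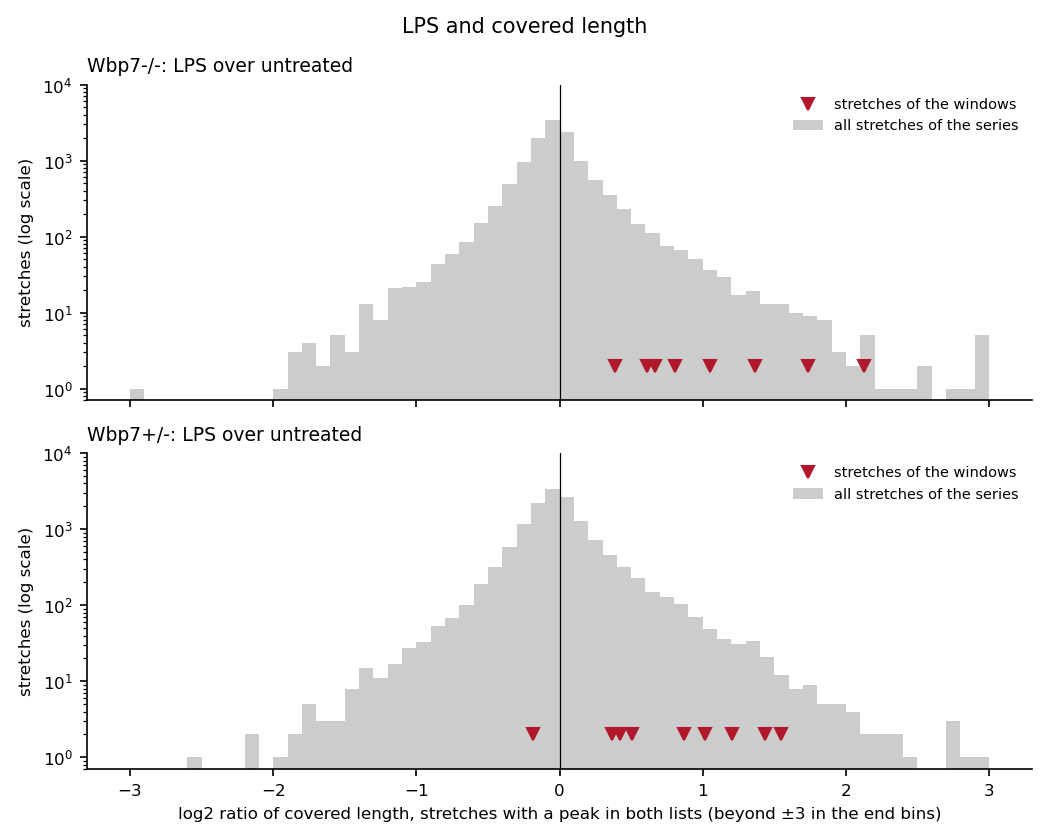
Log2 ratio of covered length, LPS over untreated, for all stretches with a peak in both lists (grey, log-scaled counts) and for those of the windows (triangles, drawn at an arbitrary height). All 8 triangles of KO cells and 8 of 9 of HET cells lie above 0, the exception being the flank of Irgm1.

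Edges were taken at the outermost peak of each list, small fragments included. By that measure, at each stretch found in all lists, the outward shift with LPS was larger at the edge toward which the named genes are transcribed. Irgm1 is on the minus strand, and the outer edge of its stretch on the lower-coordinate side lay 1473 bp further out with LPS in KO cells and 1763 bp further out in HET cells. Its other edge lay 57 bp further out in KO cells and 150 bp in HET cells. Igtp, Irgm2 and the 4 Gbp genes are on the plus strand, and at all 7 stretches of their windows the higher-coordinate edge shifted outward more than the other edge in both genotypes. In the Igtp and Irgm2 window that edge shifted by 1308 to 1943 bp in KO cells and by 828 to 2752 bp in HET cells. The opposite edge shifted by between -25 and 134 bp in KO cells and between -164 and 192 bp in HET cells, where a negative value is an inward shift. At the second of these stretches, the 828 bp in HET cells rest on a separate fragment scoring 168.66. The larger peak beside it ended at 58015924 with LPS and 58015776 without, a smaller shift than the 192 bp at the opposite edge. In the Gbp window the higher-coordinate edge shifted by 1120 to 3556 bp in KO cells and by 1476 to 3350 bp in HET cells.

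The lower-coordinate edges of the Gbp stretches shifted too, by less. At the first stretch the shift was 2759 bp in KO cells and 2730 bp in HET cells. At the other 3 it was between 75 and 736 bp in KO cells and between -46 and 931 bp in HET cells. At the first stretch the outermost part consisted of separate small peaks present with LPS only. Over all stretches at the ceiling in both lists of a genotype, the median shift per edge was -22 to -23 bp. Of the window stretches called in both lists, 4 of 8 in KO cells and 7 of 9 in HET cells met that condition. The window shifts above also include the others, so the 2 sets are unlike. At 7 of the 8 window stretches found in all lists, an edge lay 1 kb or more further out with LPS in both genotypes, against 2.23% of such stretches. The third Igtp and Irgm2 stretch counts in HET cells only through a fragment scoring 54.13. The larger peak beside it ended at 58032301 with LPS and 58031509 without, less than 1 kb apart. The count of 7 was not repeated with a score minimum. Its limit of 1 kb was chosen after seeing these shifts, in windows picked with their peak widths known. The share of 2.23% thus stands for orientation only. The strands come from the RefSeq promoter table, and the gene to which each stretch belongs was not assigned.

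**Figure D4:**
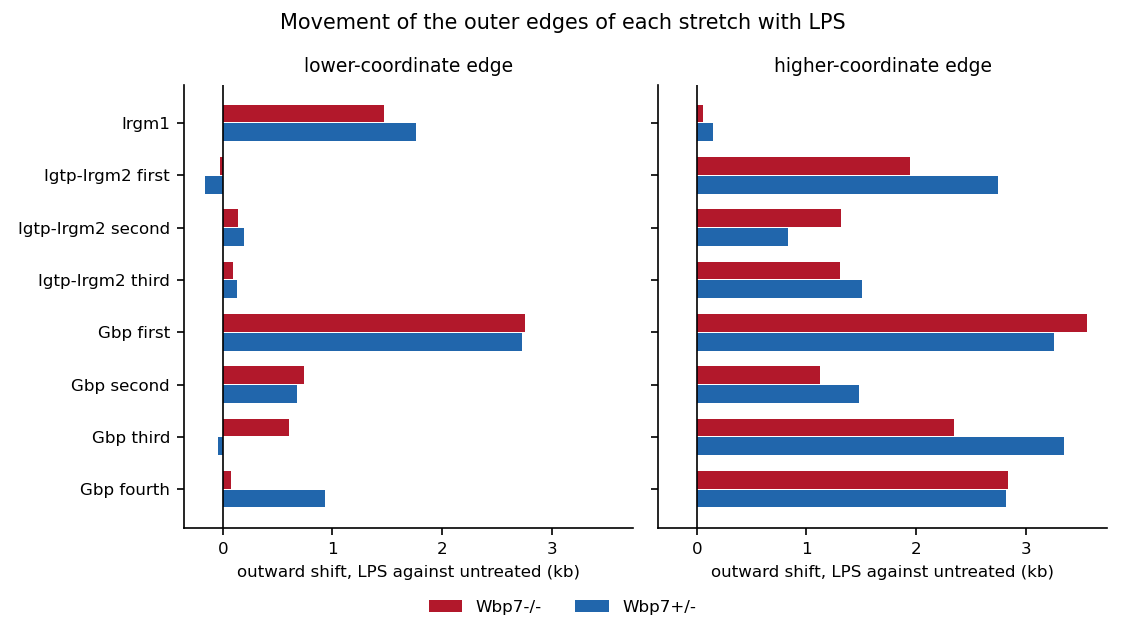
Outward shift (kb) of the lower-coordinate and the higher-coordinate edge of each stretch, LPS against untreated, in KO and HET cells. Irgm1, on the minus strand, extends at the lower-coordinate edge, and the other 7 stretches extend further at the higher-coordinate edge. Edges are those of the outermost peaks, small fragments included.

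The genotypes were then compared within each treatment. Covered length over the windows was 44232 bp in KO cells and 62470 bp in HET cells after LPS, a ratio of 0.708. Without LPS it was 19243 bp in KO cells and 30205 bp in HET cells, a ratio of 0.637. In the series as a whole, the stretches called in both genotypes were slightly longer without Wbp7, with a median ratio of 1.034 after LPS and 1.035 without. In the windows the median was 0.781 after LPS and 0.752 without. The KO stretch was the shorter at 9 of 9 after LPS, against 39.8% of all stretches, and at 8 of 8 without LPS, against 38.1%. It was shorter under both treatments at 8 of 8, against 23.9%. Counted by regions, 9 of 22 had a peak in HET cells and none in KO cells after LPS, against 18.8%, and 0 had the reverse, against 6.24%. Of the 9, 8 were the low-scoring fragments described above. Counted by peaks, 10 LPS-treated HET peaks had no KO peak, but 4 with scores of at least 100, 3 with lists of equal length and 2 when a gap of 1 kb was allowed. Without LPS, 1 of 9 had a peak in HET cells only, against 18.5%. These shares too come from the contrasts that chose the windows.

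A stretch was shorter in KO cells by 1.5 times or more at 1 of 9 after LPS (Iigp1, 5.94% of all stretches) and at 2 of 8 without (the first and the fourth Gbp stretches, 4.84%). Without LPS the first Gbp stretch had a ratio of 0.522 and the fourth one of 0.599. Stretches at the ceiling in both lists gave medians of 0.806 after LPS (8 stretches) and 0.827 without (4 stretches), against series medians of 1.04 under either treatment. Peak length also depends on depth and enrichment, which are unknown for these libraries, and their part in the difference between the genotypes was not tested.

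**Figure D5:**
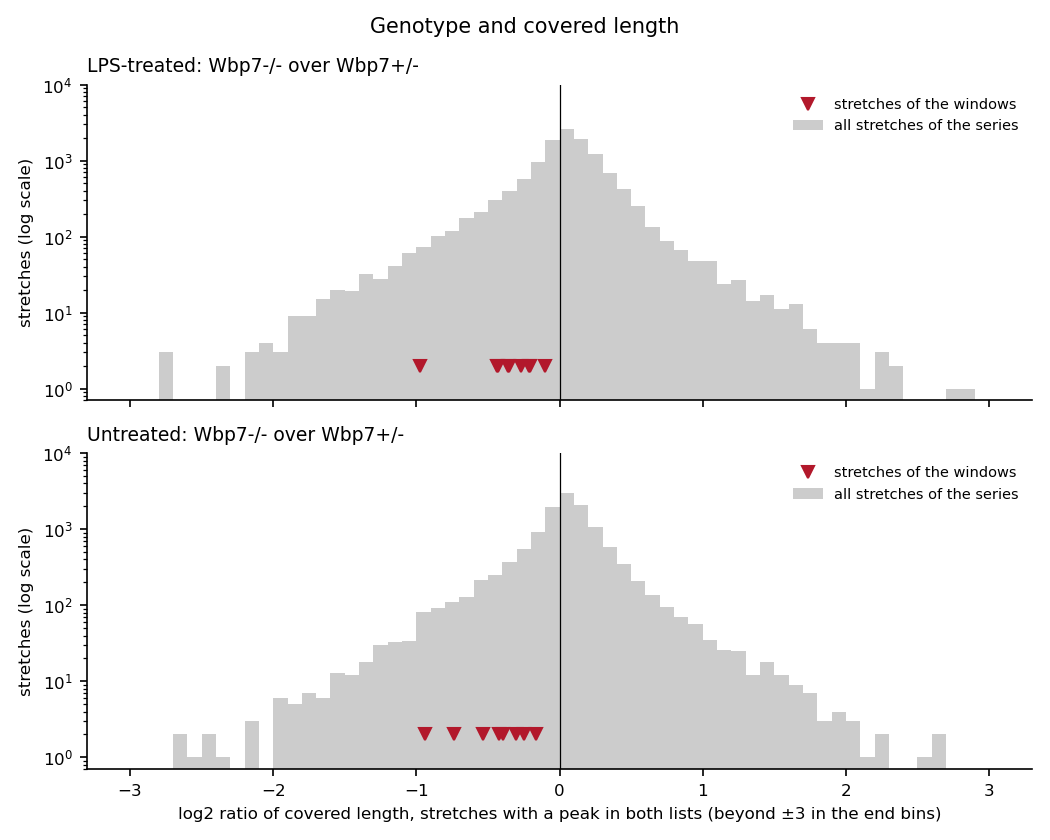
Log2 ratio of covered length, KO over HET, for all stretches with a peak in both lists (grey, log-scaled counts) and for those of the windows (triangles, drawn at an arbitrary height). All triangles lie below 0 under both treatments, and the series as a whole peaks just above 0.

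The ratio of LPS over untreated length was set side by side in the genotypes. At the first Gbp stretch it was 4.38 in KO and 2.92 in HET cells, at the fourth 3.33 in KO and 2.71 in HET cells, and at the third 2.57 in KO and 2.31 in HET cells. The second Gbp stretch gave 2.07 in KO and 2.03 in HET cells. Divided by each other, the ratios of the 8 stretches (KO over HET) ran from 0.961 to 1.497 with a median of 1.09. In the series the median was 1.005 and the range from the 5th to the 95th percentile 0.743 to 1.40, which the first Gbp stretch exceeded. In bases the order turned, since that stretch gained 5367 bp in KO cells and 5857 bp in HET cells. The difference in response was not tested, and the uncertain LPS time of the HET library cannot be told apart from it.

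The nearest peaks outside the windows show where their limits fell. Below the Irgm1 window, a peak 7.5 to 7.91 kb away measured 1168 bp (score 219.12) in KO and 1994 bp (ceiling) in HET cells after LPS. Without LPS it measured 1277 bp (score 169.67) in KO and 1989 bp (ceiling) in HET cells. It was thus narrower in both KO lists, and unlike the flank stretch it was called in them. Above the Igtp and Irgm2 window, a peak 2.61 to 2.73 kb away scored 242.87 after LPS and 325.55 without in HET cells, and in KO cells the nearest peak lay over 70 kb away under either treatment. Below the Iigp1 window, a peak of 457 bp with a score of 80.74 lay 4.16 kb away in LPS-treated HET cells. Below the Igtp and Irgm2 window the next peak lay 3.47 to 3.81 kb away in the 4 lists, and the Gbp window ended at least 41.23 kb from the next peak on either side.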

How the data were processed

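Chromatin immunoprecipitation of H3K4me3 was sequenced from 4 libraries, 1 per group. Reads were aligned with Bowtie to mm9, per the submitters' processing notes, and peaks were called in each library with MACS, per the file headers, which also name an input. The sources used here give no versions, thresholds or read numbers. The score of each peak is the deposited value of the authors' peak caller, and by the convention of MACS a multiple of the negative log10 of the p-value. Start and end are mm9 positions in the deposited lists and are given here counted from 1.

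The members and lists were chosen with earlier results of these data known. All peaks that overlap the 4 windows are reported. Peaks of the 4 lists were joined with at least 1 bp of overlap into regions, and within 1 kb into stretches, and both totals equalled those of bedtools 2.31.1. The covered length is the sum of the peak widths of a list in a stretch. A stretch was counted as longer or shorter from a ratio of 1.5, set before the files were opened but with those earlier results known. The limit of 1 kb for edges, like the ranks, was chosen after seeing the values. Joining by overlap and length calls on regions were tested on 1 list and an altered copy with removed and lengthened peaks. Length calls on stretches joined within 1 kb were not part of that test. Since a group had 1 library, groups were not tested against each other. Promoter sequences, strands and gene order are from RefSeq (GRCm38.p6), and no position was converted between builds. Other interferon-inducible GTPase genes and macrophage marker genes were not analysed here, because no mm9 annotation was used. Python 3.11.15, pandas 2.3.3, numpy 2.4.6, biopython 1.88 (local alignment) and matplotlib 3.10.9 were used.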

Additional observations from a re-analysis of the deposited data

How the results depend on the processing

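Other settings gave 92 values of the counts and length ratios, of which 78 lay within 1.5 times the reported one and 14 did not. Direction could turn only in the ratios of covered length over the windows, and 0 of these did. Keeping only peaks wholly inside a window could change no value, since every peak lay inside its window. Those values are among the 78. Alternatives that leave out the LPS-treated HET list, change the fold, include gaps or apply to stretch counts were added after seeing the data. The regions in the windows numbered 10 when joined within 1 kb, by construction. Regions in both LPS lists only numbered 2 with scores of at least 500 and 1 when joined within 1 kb. Regions in both HET lists only numbered 2 when 50% of the shorter peak had to be covered, and 2 (untreated HET peaks at the flank of Irgm1, no longer joined) without the LPS-treated HET list. Untreated HET peaks without a KO peak numbered 2, and 5 with scores of at least 500, a minimum that drops the KO peaks of the third and the fourth Gbp stretches and a KO peak scoring 245.12 in the third Igtp and Irgm2 stretch. LPS-treated HET peaks without a KO peak numbered 10, and 4 with scores of at least 100, 5 with at least 500, 3 with lists of equal length and 2 within 1 kb. LPS-treated HET peaks without an untreated peak numbered 15, and 8, 5 and 8 under the first 3 of these settings. With a fold of 2, 4 stretches in place of 7 were longer with LPS in KO cells. Depth is unknown, so what a missing peak could hide cannot be given. No paired analysis was possible because each group held 1 library.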
